A study of Mus musculus with 8 samples.

Results

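The genes described are 9 cytochrome P450 genes of the mouse Cyp2a, Cyp2b and Cyp3a subfamilies that the liver raises or lowers in response to foreign chemicals, together with Por, which encodes their electron donor. They were taken by gene symbol (Cyp2a4, Cyp2a5, Cyp2b9, Cyp2b10, Cyp2b13, Cyp3a11, Cyp3a13, Cyp3a16, Cyp3a25 and Por), and all 10 had a row among the 33467 genes of the deposited FPKM table. Whole liver of wild-type C57BL/6J mice was profiled by poly(A) RNA sequencing. The control group held 4 mice on a standard diet, and the DDC group held 4 mice given 1% 3,5-diethoxycarbonyl-1,4-dihydrocollidine in the diet over 4 weeks, a model of cholestatic injury with biliary fibrosis. All 8 libraries carry the same batch label and are labelled as biological replicates, so p-values measure the spread between animals. Sex and age are not given in the labels used here.

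Cytochrome P450 enzymes are haem proteins of the endoplasmic reticulum that oxidise drugs, steroids and other lipophilic molecules. They receive electrons from NADPH through the oxidoreductase encoded by Por. In liver, the nuclear receptors CAR (Nr1i3) and PXR (Nr1i2), each paired with RXR, sense foreign chemicals and bile constituents and activate Cyp2b and Cyp3a genes. DDC is known as a substrate that damages the haem of P450 enzymes, and the altered haem released blocks ferrochelatase, the last enzyme of haem synthesis.

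Library totals ran from 61179103 to 64768950 counts in controls and from 63312756 to 81664058 in DDC livers. Levels are given as CPM, a gene's count over the library total on a common scale, with totals adjusted by the trimmed mean of M-values (TMM), whose factors were 0.792 to 0.816 in controls and 1.21 to 1.27 in DDC livers. This scaling matters for direction, because the median log2 fold change of the genes tested was 0.07 with TMM and 0.70 with library totals alone. The control libraries were not uniform. The summed level of 15 male-biased liver genes was 1863, 12399, 1661 and 15599 CPM in controls 1 to 4 and 653 to 1414 CPM in DDC livers. The summed level of 14 female-biased genes was 1139, 873, 1410 and 955 CPM in controls 1 to 4 and 427 to 654 CPM in DDC livers. Controls 1 and 3 were thus low for male-biased genes and controls 2 and 4 high. Ddx3y, a Y-linked gene, stood at 56.4 to 67.6 CPM in controls and 45.5 to 48.4 CPM in DDC livers, and Xist did not pass 0.851 CPM in any of the 8 libraries. Each tested gene among those named at the opening stood higher in controls 1 and 3 than in controls 2 and 4. The gaps were widest for Cyp2a4, Cyp2b9 and Cyp2b13. These genes rest on these control libraries, and their values are given with and without them. The part of this split in their differences was not tested.

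Of the 9 genes that passed the low-count filter, 1 rose in DDC livers (Cyp2b10) and 4 fell (Cyp2a5, Cyp3a13, Cyp3a25 and Por) with TMM scaling, while with library totals alone Cyp2a5 and Cyp3a25 lost their calls and Cyp3a11 was called higher. A call was an adjusted p under 0.05 in edgeR's quasi-likelihood test with Benjamini-Hochberg adjustment over all genes. Among the 19535 genes tested, 56.8% were called, 30.2% higher and 26.6% lower, so 5 called of 9 is a share close to that of all genes. The shares with library totals alone were 58.9% higher and 8.96% lower, against 2 of the 9 members each way. The groups did not overlap for the same 5 genes, 1 higher and 4 lower, against 52.6% of all genes tested, 26.9% higher and 25.7% lower. The median log2 fold change of the 9 was -0.83 with TMM scaling and -0.20 with library totals alone. Cyp3a16 had too few counts in most libraries to be tested.

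**Figure D1:**
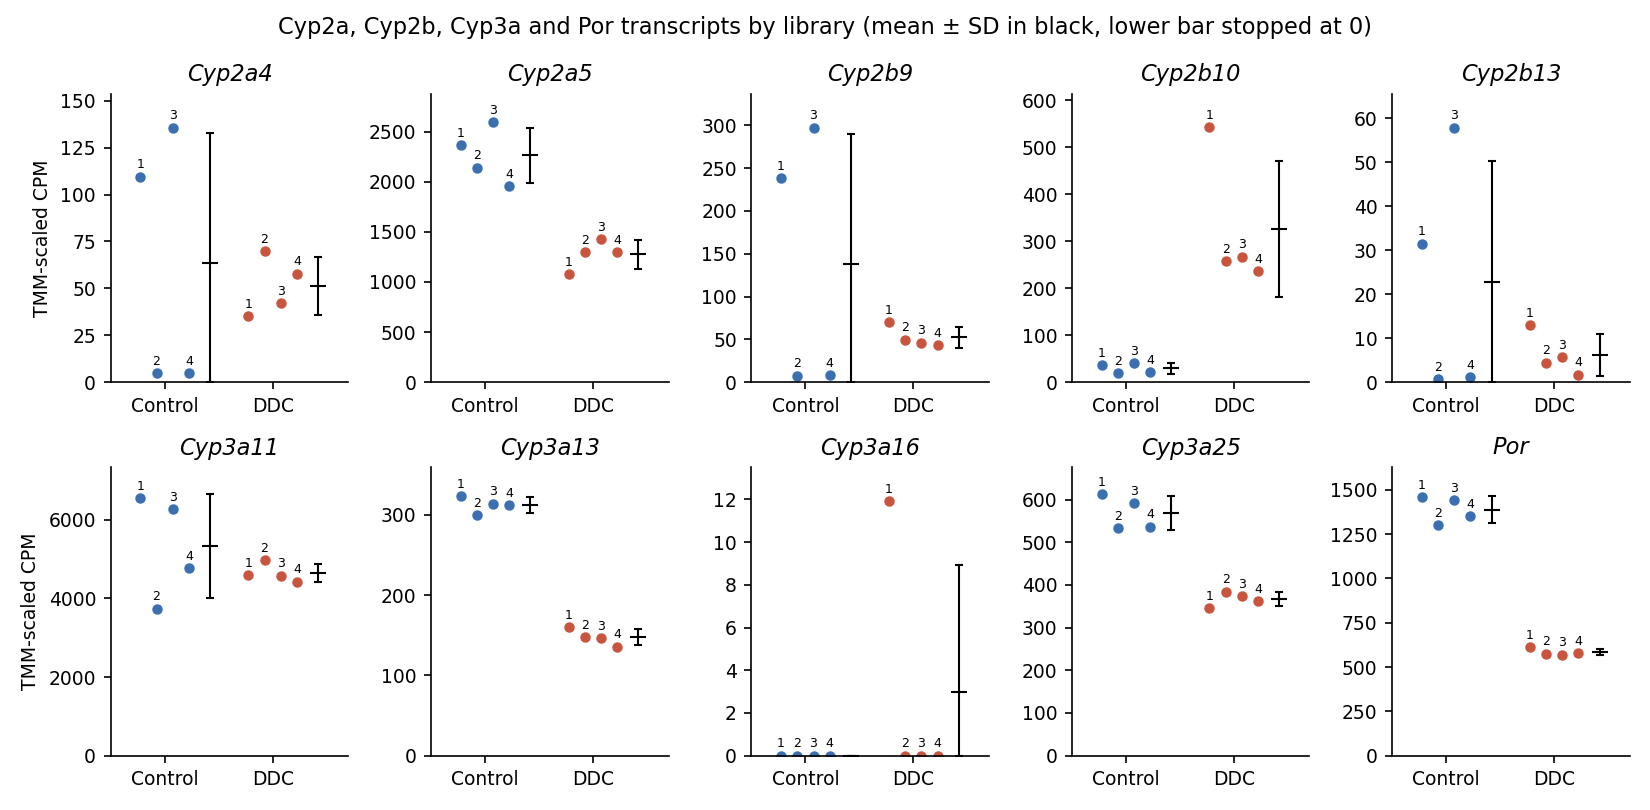
TMM-scaled CPM of the 10 genes in each library, numbered by replicate, with controls in blue, DDC livers in red and the mean ± SD (n = 4) in black, each panel starting at 0. Cyp2b10 stands higher in all DDC livers, Cyp2a5, Cyp3a13, Cyp3a25 and Por stand lower on this scale, and Cyp2a4, Cyp2b9 and Cyp2b13 are high in controls 1 and 3 and low in controls 2 and 4.

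Cyp2b10, the classical target gene of CAR in mouse liver, was the only one of the 9 tested genes called higher with TMM scaling. It lies on chromosome 7 (chr7:25897620-25926624, plus strand, GRCm38, as in the deposited table; ENSMUSG00000030483), in the same cluster as Cyp2b9 and Cyp2b13. The sequences upstream of the annotated starts are shown because Cyp2b9 and Cyp2b13 varied together over a wide range between control livers, while Cyp2b10 varied 2.16-fold there and rose with DDC. They are RefSeq sequences on GRCm38.p6, in the direction of transcription, at chr7:25897408-25897619 for Cyp2b10, chr7:26173159-26173349 for Cyp2b9 and chr7:26061245-26061387 for Cyp2b13. Capitals mark AGGTCA, the core element that many nuclear receptors bind.
Cyp2b10: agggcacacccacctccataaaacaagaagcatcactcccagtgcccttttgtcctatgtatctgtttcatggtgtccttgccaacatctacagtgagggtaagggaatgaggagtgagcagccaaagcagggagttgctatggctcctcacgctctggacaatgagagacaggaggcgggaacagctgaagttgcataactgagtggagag
Cyp2b9: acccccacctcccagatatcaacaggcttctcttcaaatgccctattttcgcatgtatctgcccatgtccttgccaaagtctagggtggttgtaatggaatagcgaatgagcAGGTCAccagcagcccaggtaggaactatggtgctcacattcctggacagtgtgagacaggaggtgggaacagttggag
Cyp2b13: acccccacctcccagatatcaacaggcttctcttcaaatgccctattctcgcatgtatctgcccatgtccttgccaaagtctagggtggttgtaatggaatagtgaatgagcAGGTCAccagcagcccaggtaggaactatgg
Over windows of 300 bases around the start (250 before and 50 after), Cyp2b9 and Cyp2b13 differed at 2 of 300 aligned bases. Cyp2b10 was 75.4% identical to either of them. AGGTCA was found on either strand in 16.3% of 32851 mouse promoter windows of this length, including those of Cyp2b9 and Cyp2b13, and was not among the letters of the Cyp2b10 window. Neither AGTTCA, a variant of the element held by 14% of windows, nor TTCNNNGAA, the STAT element held by 8.3%, was found in the 3 Cyp2b windows. Sequence outside these windows was not searched, so elements farther from the start would be missed.

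Cyp2b10 transcripts stood at 36.4, 18.9, 41.0 and 20.9 CPM in controls 1 to 4. In DDC livers 1 to 4 they stood at 543, 258, 267 and 236 CPM. Every DDC liver was far above every control, and DDC 1 was well above the other DDC livers. The mean rose from 29.3 ± 11.03 to 326 ± 145 CPM (SD, n = 4 each), an 11.1-fold rise with a log2 fold change of 3.47 ± 0.39 (SE; edgeR adjusted p = 0.000138). With library totals alone the log2 fold change was 4.09 (edgeR adjusted p = 3.86e-05). Relative to the median of all genes, a difference that scaling between libraries leaves in place by construction, the TMM value was 3.40. Cyp2b10 shared no stretch of 150 bases, the length of a read, with any other annotated transcript.

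Among 9461 other genes with a mean of at least 10 CPM in either group, those nearest to Cyp2b10 in pattern were Ptafr, Cxcr2, Ccl6, Cyp4f18 and Tlr13. Likeness was the root mean square difference of log2 CPM, each gene centred on its own mean over the 8 libraries. It was 0.329 for Ptafr, a receptor for platelet-activating factor, 0.339 for Cxcr2, a chemokine receptor of neutrophils, and 0.379 for Tlr13, a sensor of bacterial RNA. All 5 are best known from myeloid cells, and their control means ran from 1.03 CPM for Cyp4f18 to 10.5 CPM for Ccl6. The measure describes 8 libraries that differ mainly by diet, and says nothing of control or of cell of origin.

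Cyp2b9 and Cyp2b13, P450 genes known for higher expression in female than in male mouse liver, did not pass the test and varied more among controls than between diets. Cyp2b9 (chr7:26173411-26210661, ENSMUSG00000040660) stood at 238, 7.76, 297 and 8.44 CPM in controls 1 to 4. In DDC livers 1 to 4 it stood at 70.0, 49.6, 46.1 and 43.4 CPM. The DDC livers lay close together and fell between the control values, below controls 1 and 3 and above controls 2 and 4. The group means were 138 ± 152 and 52.3 ± 12.1 CPM (SD, n = 4 each), with a log2 fold change of -1.40 ± 1.18 (SE; edgeR adjusted p = 0.343). The highest control was 38.3 times the lowest, against 1.61 times in DDC livers. The direction was not stable, since the log2 fold change was 2.69 when controls 1 and 3 were left out and -2.37 when controls 2 and 4 were. These omissions were chosen after the values were seen and carry no test.

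Cyp2b13 (chr7:26061497-26096197, ENSMUSG00000040583) followed the same order at lower levels, with 31.5, 0.607, 57.9 and 1.11 CPM in controls 1 to 4. DDC livers 1 to 4 had 13.0, 4.41, 5.73 and 1.704 CPM. The groups overlapped, and the highest control was 95.3 times the lowest. The annotated pseudogene Rnf170-ps overlaps Cyp2b13 on the same strand. The log2 fold change was -1.88 ± 1.39 (SE, n = 4 each; edgeR adjusted p = 0.284). The value was 2.84 if controls 1 and 3 were left out and -2.86 if controls 2 and 4 were. Summed over Cyp2b9 and Cyp2b13, the level was 270, 8.36, 355 and 9.56 CPM in controls 1 to 4 and 45.1 to 83.0 CPM in DDC livers, so the split remained when the rows were added.

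The coding sequences of Cyp2b9 and Cyp2b13 differed at 107 of 1473 bases (92.7% identity), and those of Cyp2b9 and Cyp2b10 were 87.8% identical. A stretch of 90 coding bases, positions 1037 to 1126 from the start codon, is shown because it holds 17 of the differing bases, by which reads of the 2 genes can be told apart. It is from the GENCODE M21 transcripts on GRCm38, at chr7:26200805-26200894 for Cyp2b9 and chr7:26088317-26088406 for Cyp2b13, both on the plus strand. Capitals mark the differing bases.
Cyp2b9: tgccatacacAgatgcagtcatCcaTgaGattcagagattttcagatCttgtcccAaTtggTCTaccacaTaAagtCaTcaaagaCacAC
Cyp2b13: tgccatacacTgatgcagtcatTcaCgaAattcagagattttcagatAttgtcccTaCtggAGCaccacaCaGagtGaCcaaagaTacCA
No window of 150 bases was identical between these 2 genes, while 87 of 1726 windows of Cyp2b13 (5.04%) were identical to the annotated gene Gm45225. The longest identical coding run between Cyp2b9 and Cyp2b13 was 113 bases.

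The makeup of the Cyp2b transcripts differed between livers. Cyp2b10 made up 11.9%, 69.4%, 10.3% and 68.6% of the counts of the 3 Cyp2b genes in controls 1 to 4. In DDC livers 1 to 4 its share was 86.7%, 82.7%, 83.8% and 83.9%. Each DDC liver was above each control, and the DDC livers were nearly alike. The share was 40.1% ± 33.4 in controls and 84.3% ± 1.73 in DDC livers (SD, n = 4 each). The summed level of the 3 genes was 306, 27.3, 396 and 30.4 CPM in controls 1 to 4 and 281 to 626 CPM in DDC livers, so the groups overlapped for the sum. Its log2 fold change was 1.02 in an edgeR fit with summed rows in place of single ones.

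**Figure D2:**
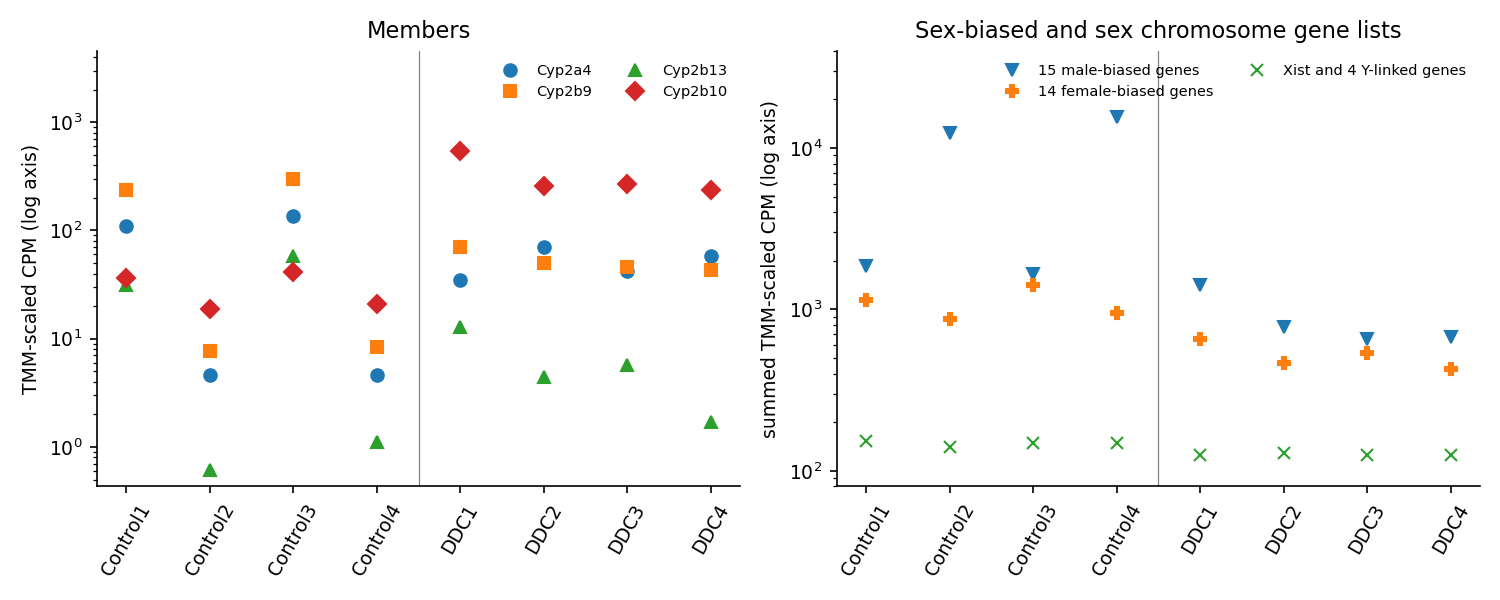
Left, TMM-scaled CPM of Cyp2a4, Cyp2b9, Cyp2b13 and Cyp2b10 in each library on a log axis. Right, the summed TMM-scaled CPM of male-biased genes, female-biased genes, and Xist with 4 Y-linked genes. Controls 1 and 3 are high for Cyp2a4, Cyp2b9 and Cyp2b13 and low for male-biased genes, and controls 2 and 4 are the reverse, while the sex chromosome genes lie between 125 and 153 CPM in all libraries. Cyp2b10 is also higher in controls 1 and 3 than in controls 2 and 4, over a narrower range.

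Cyp2a5, the coumarin hydroxylase of mouse liver and an enzyme that also oxidises nicotine and bilirubin, fell with TMM scaling, and the call was lost with library totals alone. Its neighbour Cyp2a4, a testosterone hydroxylase known to be higher in female liver, did not pass the test in either case. The 2 genes are near-copies on chromosome 7 (Cyp2a4 at chr7:26307169-26315088, ENSMUSG00000074254, and Cyp2a5 at chr7:26835305-26843548, ENSMUSG00000005547), differing at 23 of 1482 coding bases. The 90 coding bases at positions 536 to 625, chr7:26308970-26309059 for Cyp2a4 and chr7:26837133-26837222 for Cyp2a5 in the GENCODE M21 transcripts (GRCm38, plus strand), hold 4 of these differences, in capitals. They are shown because a read must cover such a base for the counts of the 2 genes to be divided.
Cyp2a4: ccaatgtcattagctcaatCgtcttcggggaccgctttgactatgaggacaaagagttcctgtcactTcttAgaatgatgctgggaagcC
Cyp2a5: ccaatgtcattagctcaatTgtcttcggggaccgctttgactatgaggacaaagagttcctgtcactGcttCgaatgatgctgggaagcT
The longest identical coding run was 216 bases, and 67 of 1589 windows of 150 bases in Cyp2a4 (4.22%) occurred unchanged in Cyp2a5. Their promoter windows differed at 5 of 299 aligned bases. Gm42375 overlaps Cyp2a4 on the other strand.

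Cyp2a5 stood at 2367, 2140, 2592 and 1954 CPM in controls 1 to 4. In DDC livers 1 to 4 it stood at 1081, 1297, 1430 and 1294 CPM. All DDC livers were below all controls on this scale. The mean went from 2263 ± 277 to 1276 ± 144 CPM (SD, n = 4 each), 1.77-fold lower, with a log2 fold change of -0.83 ± 0.11 (SE; edgeR adjusted p = 0.000161). With library totals alone the log2 fold change was -0.20 (edgeR adjusted p = 0.15) and the libraries overlapped, at 1548 to 2105 CPM in controls and 1324 to 1813 CPM in DDC livers. Relative to the median of all genes the TMM value was -0.90.

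Cyp2a4 stood at 110, 4.64, 136 and 4.64 CPM in controls 1 to 4. The DDC livers 1 to 4 had 35.1, 69.7, 42.2 and 57.9 CPM. As with Cyp2b9, all DDC livers lay between the high controls 1 and 3 and the low controls 2 and 4. The log2 fold change was -0.31 ± 1.10 (SE, n = 4 each; edgeR adjusted p = 0.823) with TMM scaling and 0.30 with library totals alone. It turned positive without control 1 (0.07) or without control 3 (0.36). Leaving out both gave 3.46, and leaving out controls 2 and 4 gave -1.27.

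Cyp2a4 made up 4.43%, 0.216%, 4.97% and 0.237% of the counts of the 2 genes in controls 1 to 4, and 2.86% to 5.10% in DDC livers. Controls 2 and 4 had 237 and 225 counts for Cyp2a4 beside 109282 and 94680 for Cyp2a5. How reads common to both genes were divided was not tested, and the smaller row is the more uncertain. The sum of the 2 rows went from 2327 ± 342 to 1327 ± 150 CPM, with a log2 fold change of -0.81 in the edgeR fit of summed rows.

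Cyp3a11, the most abundant Cyp3a gene of mouse liver and the classical PXR target, had a direction that depended on the scaling. It lies at chr5:145854426-145879964 on the minus strand (ENSMUSG00000056035). The RefSeq sequence upstream of its start, chr5:145879965-145880104 on GRCm38.p6, in the direction of transcription, is shown because it holds AGGTCA and, on the other strand, AGTTCA, both in capitals.
Cyp3a11: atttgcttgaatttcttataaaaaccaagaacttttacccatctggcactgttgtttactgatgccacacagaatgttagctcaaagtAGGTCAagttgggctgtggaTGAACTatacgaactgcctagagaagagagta
AGGTCA was held by 16.3% and AGTTCA by 14% of all promoter windows. The Cyp3a25 window held AGGTCA at 2 places, and only the first of its 2 listed windows was searched. The windows of Cyp2a4 and Cyp2a5 each held AGGTCA at 1 place, on the other strand. The windows of Cyp3a13, Cyp3a16 and Por held neither motif. That of Por begins at chr5:135688895, inside the gene as annotated (chr5:135670033-135735326), so sequence at the annotated gene start was not searched. TTCNNNGAA was in none of the 10 windows.

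Cyp3a11 stood at 6548, 3739, 6272 and 4772 CPM in controls 1 to 4. For DDC livers 1 to 4 the values were 4596, 4973, 4573 and 4421 CPM. The DDC livers lay within the control range, again with controls 1 and 3 above controls 2 and 4. The means were 5333 ± 1318 and 4641 ± 235 CPM (SD, n = 4 each), with a log2 fold change of -0.20 ± 0.16 (SE; edgeR adjusted p = 0.307). With library totals alone it was 0.42 (edgeR adjusted p = 0.0378), and every DDC liver (5572 to 6024 CPM) was above every control (3050 to 5265 CPM). Without control 2 the TMM value was -0.35 and passed the test as lower (edgeR adjusted p = 0.0294). Leaving out controls 1 and 3 together gave 0.12, and leaving out controls 2 and 4 gave -0.48. Relative to the median of all genes the TMM value was -0.27.

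Cyp3a13, a P450 of liver and intestine, fell under both scalings. It lies at chr5:137892932-137921619 (ENSMUSG00000029727, minus strand) and stood at 323, 299, 314 and 312 CPM in controls 1 to 4. DDC livers 1 to 4 stood at 160, 148, 146 and 136 CPM. The groups were far apart, and within each group the libraries were nearly alike. The mean fell from 312 ± 9.96 to 147 ± 9.89 CPM (SD, n = 4 each), 2.12-fold, with a log2 fold change of -1.08 ± 0.06 (SE; edgeR adjusted p = 8.01e-07). With library totals alone it was -0.46 (edgeR adjusted p = 9.59e-05). The annotated gene Gm15502 overlaps it on the same strand, so reads in the overlap could belong to either.

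Cyp3a25, expressed in adult liver and intestine, fell with TMM scaling and not with library totals alone. It lies at chr5:145977194-146009618 (ENSMUSG00000029630, minus strand) and stood at 613, 533, 591 and 536 CPM in controls 1 to 4. The DDC livers 1 to 4 had 346, 384, 374 and 362 CPM, all below the controls. The mean went from 568 ± 39.9 to 366 ± 16.3 CPM (SD, n = 4 each), 1.55-fold lower, with a log2 fold change of -0.63 ± 0.07 (SE; edgeR adjusted p = 4.26e-05). With library totals alone it was -0.01 (edgeR adjusted p = 0.91), and relative to the median of all genes the TMM value was -0.71. It shared 13 of 1851 windows of 150 bases (0.702%) with Cyp3a59.

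Cyp3a16, a P450 known from fetal and neonatal liver, was counted in a single library. It lies at chr5:145436309-145469723 (ENSMUSG00000038656, minus strand). DDC 1 had 924 counts, or 11.9 CPM, and the other 7 libraries had 0, which allows up to 0.0570 to 0.0619 CPM in the controls and 0.0290 to 0.0355 CPM in the other DDC livers (3 counts per library, covering counting error only). Without the low-count filter edgeR gave an adjusted p of 0.298. Its coding sequence differed from that of Cyp3a11 at 109 of 1512 bases, and no window of 150 bases was shared with another annotated gene. Summed with the rows of the relatives Cyp3a41a, Cyp3a41b and Cyp3a44, the level was 14.9, 1.57, 14.6 and 1.38 CPM in controls 1 to 4 and 14.9, 5.31, 2.76 and 3.33 CPM in DDC livers 1 to 4. The sum of controls 1 and 3 was mostly Cyp3a44, at 12.8 and 14.6 CPM, while that of DDC 1 was mostly Cyp3a16.

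Cyp3a11 made up 87.5%, 81.8%, 87.4% and 84.9% of the counts of the 4 Cyp3a genes in controls 1 to 4. Its share was 89.9%, 90.3%, 89.8% and 89.9% in DDC livers 1 to 4. Each DDC liver was above each control, with 85.4% ± 2.68 in controls and 89.97% ± 0.247 in DDC livers (SD, n = 4 each). Shares do not depend on the scaling between libraries.

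Por, the oxidoreductase that passes electrons from NADPH to all microsomal P450 enzymes, fell under both scalings. It lies at chr5:135670033-135735326 (ENSMUSG00000005514, plus strand) and stood at 1458, 1299, 1443 and 1350 CPM in controls 1 to 4. For DDC livers 1 to 4 the values were 611, 575, 570 and 580 CPM. All DDC livers were below all controls, and the highest was 1.07 times the lowest. The mean fell from 1387 ± 75.8 to 584 ± 18.4 CPM (SD, n = 4 each), 2.38-fold, with a log2 fold change of -1.25 ± 0.06 (SE; edgeR adjusted p = 3.06e-07). Library totals alone gave -0.63 (edgeR adjusted p = 1.49e-05). Gm43091 and Gm16061 overlap it on the other strand, and no source used here says whether strand entered the counting.

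**Figure D3:**
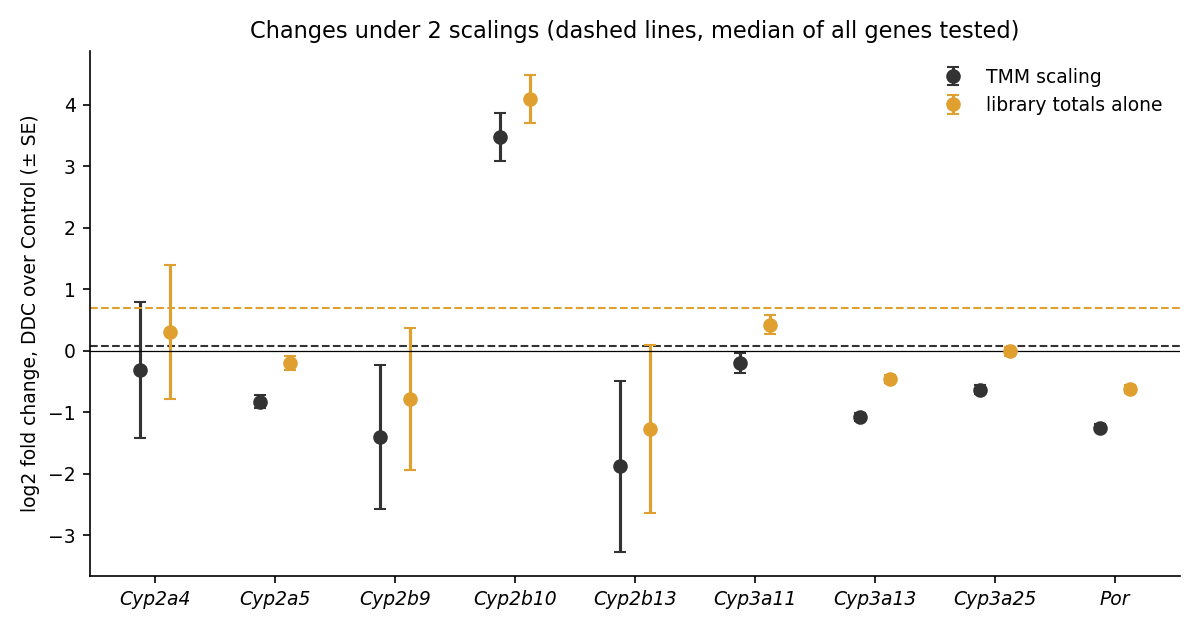
Log2 fold change (DDC over control, ± SE) of the 9 tested genes with TMM scaling (black) and with library totals alone (orange), with dashed lines at the median of all genes tested, 0.07 and 0.70. Cyp2b10 is above both lines, Cyp3a13 and Por are below 0 under both scalings, Cyp3a25 moves from -0.63 to -0.01, and Cyp3a11 moves from -0.20 to 0.42.

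Levels of different genes were compared per length, on the deposited FPKM values, which are scaled by library totals. The gene length that these values imply was 5285 bases for Cyp3a11, 4173 for Por and 2151 for Cyp2a5. Their longest coding transcripts in GENCODE M21 have 2344, 2636 and 2013 bases. The order of the genes thus depends on the length used, and other lengths were not tried. In controls the order was Cyp2a5 (851 ± 111 FPKM, SD, n = 4), Cyp3a11 (816 ± 202), Por (269 ± 15.1), Cyp3a25 (213 ± 15.6) and Cyp3a13 (82.2 ± 2.41). Below them came Cyp2b9 (57.5 ± 63.4 FPKM), Cyp2a4 (28.6 ± 31.1), Cyp2b10 (10.8 ± 4.12), Cyp2b13 (9.50 ± 11.5) and Cyp3a16, listed at 0. Cyp2a5 and Cyp3a11 overlapped in the controls, as did each neighbouring pair from Cyp3a13 down to Cyp2b13.

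In DDC livers Cyp3a11 led with 1088 ± 38.3 FPKM, ahead of Cyp2a5 at 736 ± 94.0 FPKM (SD, n = 4), and their libraries did not overlap. Cyp3a25 (210 ± 10.1 FPKM), Cyp2b10 (184 ± 79.8) and Por (173 ± 5.13) came next, with Cyp2b10 overlapping both of its neighbours. Cyp2b10 thus moved from rank 8 of the 10 genes to rank 4. Cyp3a13 (59.6 ± 3.39 FPKM), Cyp2a4 (35.1 ± 10.4), Cyp2b9 (33.2 ± 7.27), Cyp2b13 (3.93 ± 3.01) and Cyp3a16 (2.03 ± 4.06, from DDC 1 alone) followed.

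Summed over the 9 P450 genes, the level was 2376, 1691, 2481 and 1726 FPKM in controls 1 to 4. It was 2325, 2364, 2436 and 2284 FPKM in DDC livers 1 to 4, within the control range on library totals. TMM scaling would lower the DDC values relative to controls, with factors of 0.792 to 0.816 in controls and 1.21 to 1.27 in DDC livers. The FPKM sum was not computed on that scale. Divided by the Por level of the same library, the sum was 8.43, 6.62, 8.80 and 6.73 in controls 1 to 4. It was 13.0, 14.2, 14.1 and 13.0 in DDC livers 1 to 4, above every control. The ratio went from 7.65 ± 1.13 to 13.6 ± 0.645 (SD, n = 4 each), and since both terms come from the same library it does not depend on the scaling between libraries.

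**Figure D4:**
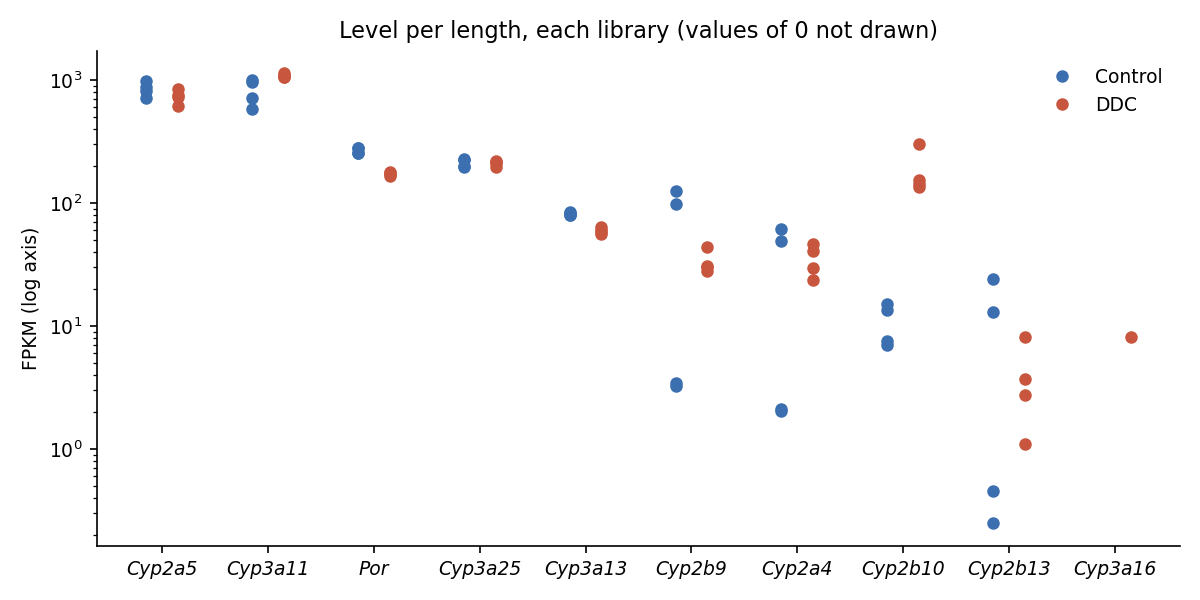
Deposited FPKM of each gene in each library on a log axis, in order of the control mean, with controls in blue and DDC livers in red. Cyp2a5 and Cyp3a11 lead in both groups, and Cyp2b10 goes from 7.08 to 15.2 FPKM in controls to 136 to 303 FPKM in DDC livers. Values of 0 (Cyp3a16 in 7 libraries) are not drawn.

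Most transcription factors and cofactors that govern these genes were lower in DDC livers with TMM scaling. Of 12 tested, 11 were lower and 0 higher with TMM scaling (median log2 fold change -0.91), and 6 were lower and 1 higher with library totals alone (median -0.29). The shares lower over all genes tested were 26.6% and 8.96%. Nr1i2, encoding PXR, went from 148 ± 6.91 to 80.3 ± 2.55 CPM (SD, n = 4 each; log2 fold change -0.88 ± 0.06 SE, edgeR adjusted p = 1.09e-06). Nr1i3, encoding CAR, went from 335 ± 41.8 to 183 ± 17.2 CPM (-0.87 ± 0.10, edgeR adjusted p = 6.06e-05). Both were called lower with library totals alone too, at -0.26 and -0.25. Their partner Rxra, the hepatocyte factor Hnf4a (880 ± 44.3 to 374 ± 11.4 CPM), the coactivator Ppargc1a and the forkhead factor Foxo1 were also lower under both scalings. Nr0b2, the corepressor SHP that bile acids induce through FXR, stood at 47.7, 16.3, 48.9 and 24.3 CPM in controls 1 to 4 and 14.1 to 19.5 CPM in DDC livers. It was called lower with TMM scaling (-1.09, edgeR adjusted p = 0.0275) and not with library totals alone (-0.46, edgeR adjusted p = 0.258). Ncoa6 did not pass the test with TMM scaling (edgeR adjusted p = 0.0504), and was called higher with library totals alone, where the values of Rxrb and Ncoa1 also changed sign.

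Other genes known as CAR or PXR targets did not share a direction. Of 23 tested, 10 were higher, 7 lower and 6 not called with TMM scaling, and 15 were higher and 2 lower with library totals alone. Over all genes tested 30.2% were higher and 26.6% lower with TMM scaling, and 58.9% and 8.96% with library totals alone, so the lower count with TMM scaling and both counts with library totals are near the background. Sult2a1, a sulfotransferase for bile acids and steroids, rose from 0.698 ± 0.427 to 52.7 ± 41.6 CPM (SD, n = 4 each; log2 fold change 6.25, edgeR adjusted p = 0.000314). Gstm3, a glutathione transferase, rose from 125 ± 32.5 to 1528 ± 265 CPM (3.61, edgeR adjusted p = 1.12e-06), close to the log2 change of Cyp2b10. Akr1b7, an aldo-keto reductase, rose from 1.51 ± 1.01 to 17.1 ± 2.68 CPM, and Abcc4, an exporter at the sinusoidal membrane, from 4.66 ± 0.770 to 45.2 ± 5.23 CPM. Ces2a, a carboxylesterase, went the other way, from 543 ± 98.3 to 132 ± 10.05 CPM (-2.04, edgeR adjusted p = 1.11e-06), and was lower with library totals alone too (-1.42). Cyp2c29, another P450 gene raised by CAR activators, rose from 874 ± 72.8 to 2090 ± 351 CPM (1.26, edgeR adjusted p = 1.73e-05). It was chosen after its values were seen.

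A further list held 6 genes of electron supply or haem binding tied to microsomal or mitochondrial P450 enzymes. Of these, 5 were lower and 0 higher with TMM scaling, where 26.6% of all genes were lower. With library totals alone 3 were lower and 1 higher, where 8.96% of all genes were lower. The mitochondrial ferredoxin Fdx1 (-1.05, edgeR adjusted p = 1.36e-06), its reductase Fdxr (-1.05) and the mitochondrial cytochrome b5 gene Cyb5b (-1.04) were lower under both scalings. These 3 belong to mitochondria, while the P450 enzymes described here are of the endoplasmic reticulum. Pgrmc1, a haem-binding partner of P450 enzymes, was lower with TMM scaling (-0.71) and not called with library totals alone (-0.09), and Cyb5r3, a cytochrome b5 reductase, likewise (-0.61 and 0.01). Cyb5a, the microsomal cytochrome b5 gene, was not called with TMM scaling (edgeR adjusted p = 0.0586) and was called higher with library totals alone (0.37).

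Of 9 further genes of the 3 P450 subfamilies, 8 had a row and 5 could be tested. With library totals alone 2 were higher and 0 lower, against 58.9% and 8.96% of all genes tested. With TMM scaling 1 was higher and 0 lower, against 30.2% and 26.6% of all genes tested. This was Cyp3a59, which went from 27.6 ± 8.54 to 45.3 ± 7.72 CPM (SD, n = 4 each; 0.72, edgeR adjusted p = 0.0271). The count of higher relatives was 0 without control 4 or without DDC 2, 2 without control 1 and 3 without DDC 3. The count of lower ones was 1 without control 2 or without control 4. Cyp2a12, the abundant relative of Cyp2a5, stood at 509 ± 22.7 and 572 ± 43.2 CPM with TMM scaling (edgeR adjusted p = 0.0693) and was called higher with library totals alone (0.79).

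Cell type markers moved beside these genes. Over all genes tested 30.2% were higher and 26.6% lower with TMM scaling, and 58.9% and 8.96% with library totals alone. Of 11 hepatocyte markers tested, 10 were lower with TMM scaling (median log2 fold change -0.89), their summed level going from 156540 to 181770 CPM in controls to 75908 to 88889 CPM in DDC livers, and with library totals alone 7 were lower and 2 higher (median -0.27). Of 8 cholangiocyte markers 7 were higher, their summed level going from 83.5 to 165 CPM to 739 to 1134 CPM. Most of the sum in DDC livers was Spp1, at 728 ± 149 CPM against 50.8 ± 1.91 CPM in controls (SD, n = 4 each). Of 8 macrophage markers all 8 were higher (235 to 292 CPM against 1592 to 1702 CPM), and of 8 fibroblast markers 6 (304 to 350 CPM against 1023 to 1212 CPM). With library totals alone the counts of higher cholangiocyte, macrophage and fibroblast markers were the same, at 7, 8 and 6. No marker was at 0 in any library. In bulk tissue, fewer hepatocytes and less RNA per hepatocyte cannot be told apart, and the part of cell makeup in the lower P450 and Por levels was not tested. Beside the hepatocyte median of -0.89, Por was at -1.25, Cyp3a13 at -1.08, Cyp2a5 at -0.83, Cyp3a25 at -0.63 and Cyp3a11 at -0.20.

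**Figure D5:**
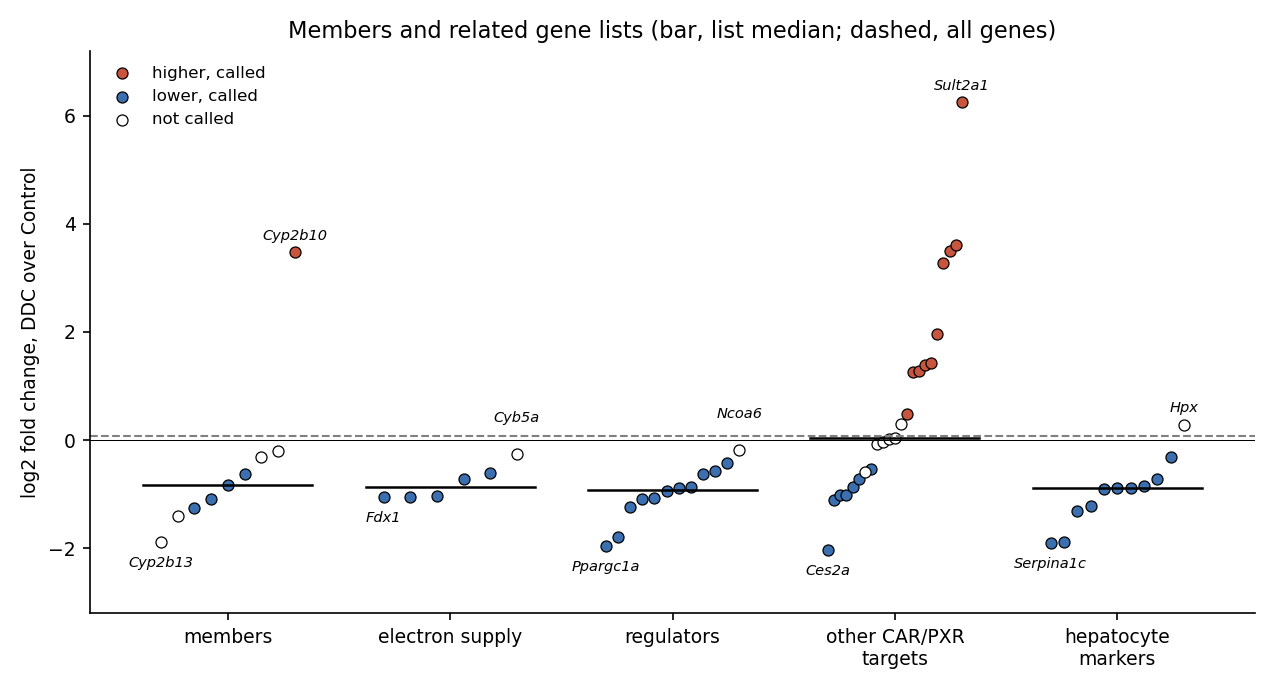
Log2 fold change (DDC over control, TMM scaling) of each tested gene in 5 lists, filled red or blue where called higher or lower and open where not called, with a bar at each list's median and a dashed line at the median of all genes, 0.07. The members, electron supply genes, regulators and hepatocyte markers have medians between -0.91 and -0.83, while the other CAR and PXR targets spread from -2.04 for Ces2a to 6.25 for Sult2a1. With library totals alone the medians of these lists are higher, at -0.20 for the members and -0.29 for the regulators.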

How the data were processed

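The deposited gene counts are whole numbers per gene, not normalized, and the deposited FPKM values are the authors' counts scaled by gene length and library total. The counts in both files were equal for all 33467 genes of the FPKM table. HISAT2, StringTie, DESeq2, cutadapt and FastQC, and the builds GRCm38 and mm10, are named in the submitters' processing notes. Versions and any strand setting of the counting are not given in the sources used here. Per the labels' protocols, libraries were poly(A)-selected with dUTP in the second strand and read as 150-bp pairs, from RNA with an integrity number above 7.

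All 55401 genes of the count matrix entered edgeR 4.0.16 under R 4.3.3. After filterByExpr and TMM scaling, DDC was set against control in a robust quasi-likelihood fit of all 8 libraries with no covariate. Two-sided p-values were adjusted by Benjamini-Hochberg over 19535 genes. Standard errors (SE) were the log2 fold change divided by the square root of F. The genes, the gene lists and the tests were chosen with earlier results of these data known. All 10 genes were named, with up to 4 called genes of each list that had the largest changes and the largest against the list, plus Nr1i2, Nr1i3 and the sex chromosome genes. Rxra, Rxrb, Ncoa1, Ncoa6, Cyb5a, Cyb5r3, Cyp2a12, Cyp2c29 and the Cyp3a41 and Cyp3a44 rows were chosen after their values were seen. Alternatives were other scalings and filters, DESeq2 1.42.0, limma 3.58.1 (voom, and log2 FPKM with pseudocounts of 0.1 and 1), each library left out, and a replicate block.

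Coordinates are those of the deposited table, and all 10 genes have the same coordinates in GENCODE M21 (GRCm38). Coding stretches are from GENCODE M21 transcripts and promoters from RefSeq (GRCm38.p6), which held a window for all 10 genes. Protein sequences were not used here. Members of the subfamilies share sequence, so the division of reads among them is uncertain. Intervals and limits from counts cover counting error only.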

Additional observations from a re-analysis of the deposited data

Results flagged for a closer look

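In 11 of 102 groups of 4 libraries, over 51 genes named here or looked at beside them, 1 library stood apart from the other 3, where chance alone gives about 1 in 20 independent groups. These groups are not independent, since they share the same 8 libraries and some genes were picked for their likeness to Cyp2b10. DDC 1 was the library that stood apart in 8 of them. It had 543 CPM of Cyp2b10 against 236 to 267 CPM in the other DDC livers, and 11.9 CPM of Cyp3a16 against 0. Without DDC 1 the log2 fold change of Cyp2b10 was 3.09 in place of 3.47, and its call remained (edgeR adjusted p = 0.000106). DDC 1 also had 82.9 CPM of Cyp2c55, a P450 gene raised by CAR and PXR activators, against 27.5 to 30.6 CPM, and 27.9 CPM of Ppargc1a against 6.22 to 6.77 CPM. Its other high values were 12.7 CPM of Slco1a1 against 2.13 to 3.13 CPM, 10.5 CPM of Cyp2d40 against 5.95 to 6.55 CPM, 159.7 CPM of Ccl6 against 105 to 111 CPM, and 0.851 CPM of Xist against 0.174 to 0.217 CPM. Among controls, control 4 had 397 CPM of Nr1i3 against 308 to 322 CPM, control 3 had 0.665 CPM of Xist against 0 to 0.0979 CPM, and control 2 had 1.57 CPM of Tlr13 against 3.05 to 3.23 CPM. The causes were not tested.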

How the results depend on the processing

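Cyp2b10, Cyp3a13 and Por kept their direction and call under every scaling, filter, test and left-out library tried, with ranges over left-out libraries of 3.09 to 3.67, -1.14 to -1.03 and -1.29 to -1.22 (log2). Scaling decided most of the rest. Genes called higher numbered 5893 with TMM, 11501 with library totals alone, 11052 with totals without the 20 most abundant genes, and 11976 and 11987 with limma on log2 FPKM plus 0.1 and plus 1. Genes called lower numbered 5205, 1750, 1891, 1826 and 1815 in the same order, and 1572 with log2 FPKM plus 1 at a mean FPKM of at least 1. In these 5 settings 2 of the 9 genes were called lower in place of 4, and with all but totals without the 20 most abundant genes 2 in place of 1 were called higher. Cyp2a5 was -0.20, -0.25, -0.21, -0.21 and -0.21 in them, Cyp3a25 -0.0099, -0.0555, -0.0144, -0.0143 and -0.0143, and Cyp3a11 0.42, 0.38, 0.45, 0.45 and 0.45 (adjusted p = 0.0352 to 0.0661). Cyp2a4 was 0.30, 0.25, 1.64, 1.42 and 1.42 in them and 1.01 with limma voom. Cyp2b9 was 0.12 with voom and 0.75, 0.61 and 0.61 with log2 FPKM, and Cyp2b13 was 0.20 with log2 FPKM plus 0.1. In the 5 settings the electron supply list had 3 lower in place of 5 and 1 higher in place of 0, the regulators 6 lower (7 with totals without the 20 most abundant genes) in place of 11 and 1 higher in place of 0, and the other CAR and PXR targets 2 lower in place of 7. The 3 Cyp2b rows summed gave 1.02 in place of 3.47 for Cyp2b10.

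Over left-out libraries, genes called higher ran from 5039 to 6228 and lower from 4593 to 5532, members called lower from 4 to 5, Cyp2a4 from -0.71 to 0.36, Cyp2a5 from -0.90 to -0.76, Cyp2b9 from -1.80 to -0.71, Cyp2b13 from -2.54 to -0.85, Cyp3a11 from -0.35 to -0.0944, and Cyp3a25 from -0.67 to -0.60. Controls were also left out in pairs chosen after seeing their values for these genes, so the direction follows from the choice and the counts carry no test. Without controls 1 and 3 the count of members higher was 4, and Cyp2a4, Cyp2b9, Cyp2b13 and Cyp3a11 were 3.46, 2.69, 2.84 and 0.12. Without controls 2 and 4 the count lower was 8, and they were -1.27, -2.37, -2.86 and -0.48. Over all genes, 5180 were called higher and 4659 lower without controls 1 and 3. Without controls 2 and 4 these counts were 5453 and 5016. Replicate numbers pair the samples only by name, since deviations of same-numbered libraries correlated at -0.215, -0.184, 0.029 and -0.047, and for no number did its 2 libraries each correlate best with the other. With the replicate block Cyp2a4 was 0.98 and Cyp2b9 0.13, and no call of a member changed. Beyond the settings' own construction, the causes of these shifts were not tested. With 4 livers a group and controls that differ up to 95.3-fold, Cyp2a4, Cyp2b9 and Cyp2b13 have standard errors of 1.10 to 1.39 on the log2 scale, so even large changes may go undetected.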

Other observations

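The female-biased and male-biased lists, chosen with the split of the controls known, describe the background in which Cyp2a4, Cyp2b9 and Cyp2b13 were measured. Of 15 male-biased genes, 13 were lower and 0 higher in DDC livers with TMM scaling (median log2 fold change -3.86). Over all genes tested 26.6% were lower. With library totals alone 10 of the male-biased genes were lower, against 8.96% of all genes tested. With TMM scaling the count lower ran from 7 (without DDC 3) to 13 over left-out libraries. It was 9 with limma voom or without the count filter, and 7 with the replicate block or with log2 FPKM. Slco1a1, an organic anion transporter, stood at 44.8, 390, 48.1 and 430 CPM in controls 1 to 4 and 2.13 to 12.7 CPM in DDC livers. Hsd3b5, a steroid dehydrogenase, stood at 1.88, 74.2, 3.08 and 102 CPM in controls 1 to 4 and 0.512 to 3.31 CPM in DDC livers. Susd4, which encodes a membrane regulator of complement, stood at 33.1, 59.4, 31.2 and 53.7 CPM in controls 1 to 4 and 1.25 to 3.34 CPM in DDC livers, so all 4 controls were above all DDC livers.

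Of 13 female-biased genes tested, 4 were higher and 6 lower with TMM scaling, against 30.2% and 26.6% of all genes tested. The higher count is near the background. With library totals alone 4 were higher and 5 lower, against 58.9% and 8.96% of all genes tested. Cux2, a transcription factor, rose in DDC livers from 1.96 ± 1.25 to 17.7 ± 3.16 CPM (SD, n = 4 each; log2 fold change 3.17, edgeR adjusted p = 0.000198). Cyp2d40 fell from 76.0 ± 6.03 to 7.27 ± 2.16 CPM (-3.39, edgeR adjusted p = 7.86e-07). Its controls 1 to 4 stood at 79.3, 70.4, 82.8 and 71.5 CPM, again with controls 1 and 3 above controls 2 and 4. The Y-linked Ddx3y was lower with TMM scaling (-0.40, edgeR adjusted p = 0.000505) and higher with library totals alone (0.23, edgeR adjusted p = 0.00659), and Uty also changed sign, while Eif2s3y and Kdm5d were not called with TMM scaling.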
